A study of Caenorhabditis elegans with 6 samples.

Results

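Maternal RNA-binding protein genes of the nematode Caenorhabditis elegans, 10 in all, were followed in an ung-1 mutant and in wild type N2. The genes were chosen by name as regulators of mRNA in the oocyte and early embryo, and comprise oma-1, oma-2, mex-1, mex-3, mex-5, mex-6, pos-1, pie-1, spn-4 and puf-5. All 10 were found among the 17118 genes named on the array, on 16 of the 22548 probe sets tested. A probe set was taken where the platform annotation gave it a single gene symbol, and 1 further probe set that lists mex-1 under 2 gene identifiers was left out for that reason. There were 2 probe sets for 6 of the genes and 1 for 4.

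Biotin-labelled total RNA from 3 mutant samples and from 3 samples of N2, the common laboratory strain of the worm, was measured on Affymetrix C. elegans genome arrays, 1 array a sample. The mutated gene, ung-1, codes for a uracil-DNA glycosylase, the enzyme that cuts uracil out of DNA in base excision repair. The sample labels speak of a mutant and the design text of RNAi. The labels name no allele, age, sex, tissue, culture condition or treatment, and call the replicates biological without saying how cultures were separated, so that p-values measure only the spread between these samples. Values below are probe set intensities in arbitrary units. A difference, or log2 fold change, is the mean log2(intensity + 16) of the mutant less that of N2, with its standard error (SE) from limma.

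A C. elegans oocyte is loaded with mRNAs that stay silent until meiotic maturation, fertilisation or the first embryonic divisions, and proteins that bind the untranslated ends of those mRNAs decide when and where they are translated. Most of the genes studied here encode proteins with paired CCCH zinc fingers. The others carry KH domains (mex-3), an RNA recognition motif (spn-4) or Pumilio repeats (puf-5). Their own transcripts are made in the adult germ line, so in total RNA their level depends on the germ line and on any embryos present. In such bulk samples, fewer oocytes or embryos and less RNA per cell cannot be told apart.

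The gene ung-1 itself averaged 52.6 ± 4.30 in the mutant against 262 ± 30.6 in N2 (mean ± SD, n = 3 each), 4.98 times higher in N2, with a limma adjusted p of 0.0765. Lower ung-1 RNA does not tell whether a mutant or RNAi was used, on which the labels and the design text differ. The array medians lay between 152.82 and 167.85. Of the markers of the germ line and of other tissues, none was at 0 on any array. The lowest value of any oocyte surface or eggshell marker was 976, and the lowest values of sperm and zygotic embryo markers were 35.25 and 13.38, a range where the distance from background is unknown. The 3′ to 5′ ratio of the GAPDH control, a sign of RNA integrity, ran from 5.01 to 8.77 in the mutant and from 8.30 to 11.8 in N2. For catalase it ran from 25.9 to 32.2 and from 28.3 to 31.0, and for gly14 from 0.19 to 0.43 and from 0.24 to 0.32. For ubiquitin it ran from 3.95 to 4.41 and from 4.28 to 5.32. The part of RNA integrity in the results below was not tested.

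None of the 10 genes passed the threshold of an adjusted p of 0.05 between the mutant and N2. In limma, 0 of the 16 probe sets passed, as did 0.0% of all probe sets tested. At an unadjusted p under 0.05 stood 2 of the 16 (12.5%), one of mex-1 and one of oma-2, where 1.93% of all probe sets did. In these same 2 probe sets every mutant array read below every N2 array, and in no probe set did every mutant array read above. Over all probe sets, 4.38% had the groups apart with the mutant lower and 2.31% with the mutant higher. The median log2 fold change of the 16 was -0.17, with 12 negative and 4 positive, beside a median of -0.03 and 55.5% negative over all probe sets. Without mutant replicate 3 that median was -0.01, with 8 negative and 8 positive.

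**Figure D1:**
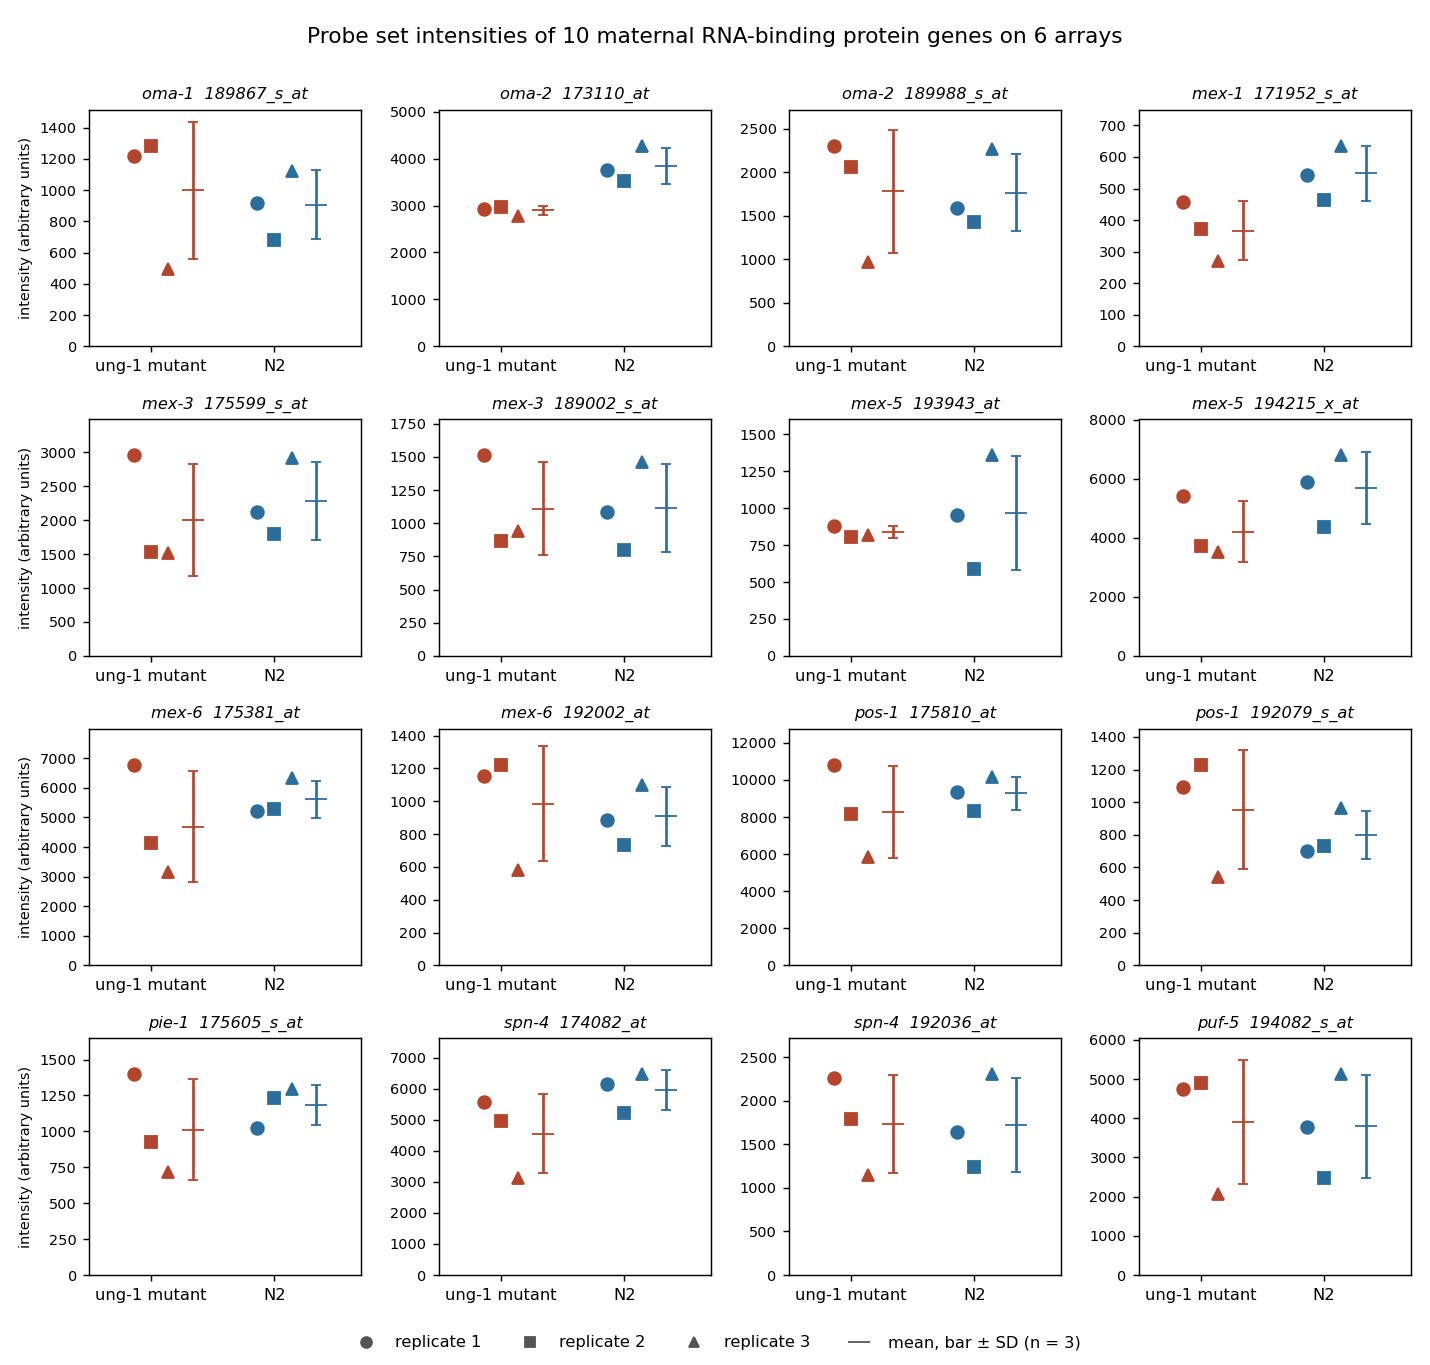
Intensity in arbitrary units (y axes from 0, a scale of its own for each panel) of the 16 probe sets on the 3 ung-1 mutant arrays (red) and the 3 N2 arrays (blue), with symbols for replicates 1 to 3 and the mean ± SD (n = 3) beside them. The red triangle, mutant replicate 3, is the lowest of the 6 arrays in 14 panels, and the groups do not overlap for mex-1 and for the oma-2 probe set 173110_at.

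The genes oma-1 and oma-2 encode closely related CCCH proteins that act redundantly in oocyte maturation and are cleared after fertilisation. The probe set of oma-1 read 1220.1, 1285 and 496 on mutant replicates 1, 2 and 3, and 917, 681 and 1123 on those of N2. Mutant replicate 3 was the lowest of the 6 arrays while the other mutant arrays were the highest, so the groups overlapped. The difference was 0.05 (SE 0.39, 95% confidence interval -0.87 to 0.97), and without mutant replicate 3 it was 0.49 (SE 0.24), which did not pass either.

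For oma-2 the 2 probe sets gave different pictures. On 173110_at the mutant arrays read 2926, 2979 and 2783.5 and the N2 arrays 3762, 3524 and 4275. Here the mutant arrays lay close together and all below N2, with means of 2896 ± 100.9 and 3854 ± 384. The difference was -0.41 (SE 0.14, 95% confidence interval -0.75 to -0.07), with an unadjusted limma p of 0.0255 and an adjusted p of 0.999. It had the smallest standard error of the 16 probe sets and lay between -0.47 and -0.33 when any single array was left out. On 189988_s_at, whose suffix marks a probe set that can match several transcripts, the mutant arrays read 2303, 2061 and 971 and the N2 arrays 1593, 1433 and 2264. These groups overlapped, mutant replicate 3 was the lowest, and the difference was -0.05 (SE 0.35). Its sign turned to 0.33 without mutant replicate 3, which leaves the direction for oma-2 dependent on the probe set.

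The gene mex-1 encodes a CCCH protein needed for the segregation of P granules and germ line proteins to the posterior blastomeres. It gave the most negative of the 16 differences. Its probe set read 457, 371 and 272 on mutant replicates 1, 2 and 3, and 544, 464 and 636 on those of N2. All mutant arrays were below all N2 arrays, with mutant replicate 1 and N2 replicate 2 next to each other. The means were 367 ± 92.9 and 548 ± 85.9, and the difference was -0.58 (SE 0.23, 95% confidence interval -1.11 to -0.04), with an unadjusted limma p of 0.038 and an adjusted p of 0.999. Without mutant replicate 3 the difference was -0.39 (SE 0.20), and over the arrays left out in turn it ran from -0.75 to -0.39. This probe set, too, can match several transcripts.

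The closely similar CCCH proteins MEX-5 and MEX-6 carry the polarity set up by the PAR proteins to the germ plasm, by clearing germ line proteins from the anterior cytoplasm. The mex-5 probe set 194215_x_at read 5399, 3709.7 and 3512 in the mutant and 5902, 4364 and 6795 in N2, a difference of -0.44 (SE 0.24). Mutant replicate 1 lay within the range of N2, so the groups overlapped. On the other mex-5 probe set, 193943_at, the mutant arrays read 882, 807 and 818, within the wide span of 952, 589.8 and 1357 in N2, and the difference was -0.13 (SE 0.29).

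The mex-6 probe set 175381_at read 6778, 4128 and 3169 in the mutant and 5221, 5279 and 6337.5 in N2. Mutant replicate 1 was the highest array and mutant replicate 3 the lowest, so that the mutant enclosed N2, with a difference of -0.32 (SE 0.28). On 192002_at the mutant arrays read 1152, 1222 and 582 and the N2 arrays 888, 736 and 1098, a difference of 0.06 (SE 0.31). Here mutant replicates 1 and 2 were the highest of the 6 arrays and mutant replicate 3 the lowest. Leaving out mutant replicate 3 gave -0.08 on 175381_at and 0.40 on 192002_at, neither past the threshold. The suffix of 194215_x_at marks a probe set whose probes can match other transcripts, and signal of mex-5 and mex-6 may not be fully separate there.

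The CCCH protein POS-1 is needed for posterior cell fates and controls translation of the Notch pathway mRNAs apx-1 and glp-1. Its probe set 175810_at read 10814, 8179.7 and 5849 in the mutant and 9338, 8334 and 10143 in N2, a difference of -0.20 (SE 0.24). The second probe set, 192079_s_at, can match several transcripts. It read 1090.1, 1229 and 540.01 in the mutant and 702, 729.9 and 967 in N2, a difference of 0.18 (SE 0.32). The groups overlapped on both, with mutant replicate 3 lowest each time. Without it, 192079_s_at stood at 0.54 (SE 0.20) with an unadjusted limma p of 0.0355, the only one of the 16 under 0.05 in that setting, where 3.69% of all probe sets were.

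PIE-1, another CCCH protein, keeps transcription off in the germ line blastomeres. Its gene read 1396, 928 and 714 in the mutant and 1026, 1229.8 and 1297 in N2. The groups overlapped, the mutant holding both the highest and the lowest array, and the difference was -0.27 (SE 0.26). Leaving out mutant replicate 3 gave -0.05, and leaving out mutant replicate 1 gave -0.53.

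Outside the CCCH family, MEX-3 is a KH domain protein that represses translation of the homeobox mRNA pal-1 in anterior blastomeres. The mex-3 probe set 175599_s_at read 2959, 1533 and 1524 in the mutant and 2115, 1803 and 2919 in N2, a difference of -0.23 (SE 0.31). On 189002_s_at the values were 1512, 869 and 943 in the mutant and 1088, 797.5 and 1463 in N2, a difference of -0.01 (SE 0.29). In both probe sets mutant replicate 1 was the highest array, so the groups overlapped. The other mutant arrays lay below all N2 arrays on 175599_s_at and between N2 replicates 2 and 1 on 189002_s_at, and mutant replicates 2 and 3 read nearly alike on the first.

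SPN-4 is an RNA recognition motif protein that acts in spindle orientation and in translation of glp-1 and skn-1 in the early embryo. The spn-4 probe set 174082_at read 5574, 4959.9 and 3124 in the mutant and 6154, 5223 and 6461 in N2. Mutant replicate 1 lay inside the N2 range and the other mutant arrays below it, giving -0.42 (SE 0.24). Without mutant replicate 3 it was -0.17, and without mutant replicate 1 it was -0.59. On 192036_at the values were 2261, 1791 and 1147 in the mutant and 1637, 1236 and 2301 in N2, with a difference of -0.0013 (SE 0.32).

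PUF-5, a Pumilio family protein, acts in late oocyte formation and represses translation in oocytes. Its gene read 4749, 4888 and 2067 in the mutant and 3763, 2486 and 5117 in N2. The 3 mutant values spanned below and within the N2 range, and the difference was 0.0013 (SE 0.40), with the largest standard error of the 16. A change of 2-fold in either direction, 1 on the log2 scale, lay outside the 95% confidence interval of 14 of the 16 probe sets on both sides, the exceptions being mex-1 and the mex-5 probe set 194215_x_at on the lower side. The intervals held 0 for 14 probe sets, and the median distance from the estimate to either end was 0.70.

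**Figure D2:**
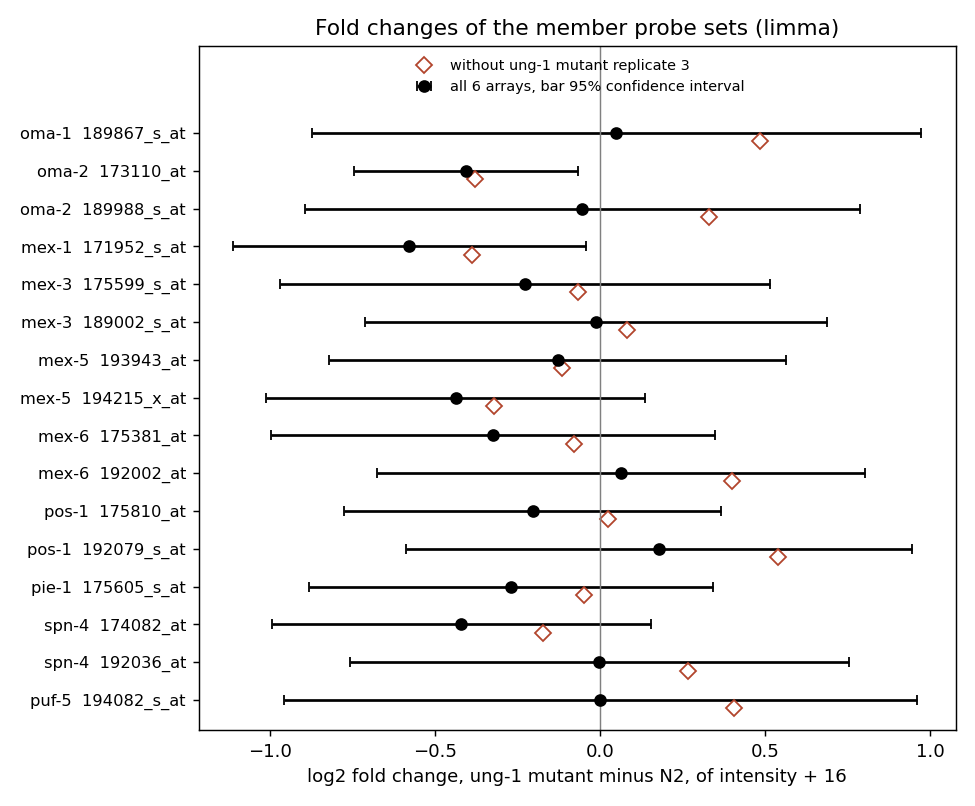
Log2 fold change (x axis, mutant minus N2, of intensity + 16) of each probe set (y axis), from limma with all 6 arrays (black circles, bars for the 95% confidence interval) and without mutant replicate 3 (open diamonds). The intervals of mex-1 and of the oma-2 probe set 173110_at lie below 0, and leaving out the array moves each point to the right.

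In the 6 genes with 2 probe sets, both lay on the same side of 0 for oma-2, mex-3, mex-5 and spn-4 and on opposite sides for mex-6 and pos-1. The probe set with the higher mean intensity had the lower log2 fold change in 6 of 6 genes, by a median of 0.37 on the log2 scale. Among all 2496 genes with exactly 2 probe sets this was so in 67.6%. Among the 572 of them with both probe sets brighter than the dimmest of the 16, it was so in 81.6%. A gene described by its brightest probe set thus read lower in the mutant than by its other one, and with the brightest probe set of each of the 10 genes the median log2 fold change was -0.30, beside -0.17 over all 16. Relative to their means, the probe sets of a gene differed by up to 0.68 on a single array (mex-6, mutant replicate 2) and, where they were closest, by up to 0.24 (mex-3, mutant replicate 3).

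Between the 3 arrays of each genotype, the spread of these genes was wider in the mutant. The median SD between replicates, on the log2 scale, was 0.49 in the mutant and 0.30 in N2, beside 0.24 and 0.21 over all probe sets. In 13 of the 16 probe sets the mutant SD was the larger one, as it was in 56.9% of all probe sets. The 16 were read on the same 6 arrays and moved together, so a single array can set such a count. Relative to each probe set's mean over the 6 arrays, the median of the 16 was 0.37, -0.09 and -0.60 on mutant replicates 1, 2 and 3, and 0.04, -0.20 and 0.38 on those of N2. Mutant replicate 3 was below the mean in 16 of 16 probe sets and the lowest array in 14 (87.5%), where it was the lowest in 27.6% of all probe sets. The exceptions were the mex-3 probe set 189002_s_at and the mex-5 probe set 193943_at, on which N2 replicate 2 was the lowest. N2 replicate 3 was above the mean in 16 of 16 and the highest array in 7, where it was the highest in 6.32% of all probe sets. The mutant arrays thus lay farther from each other than the median difference of -0.17 between the genotypes.

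**Figure D3:**
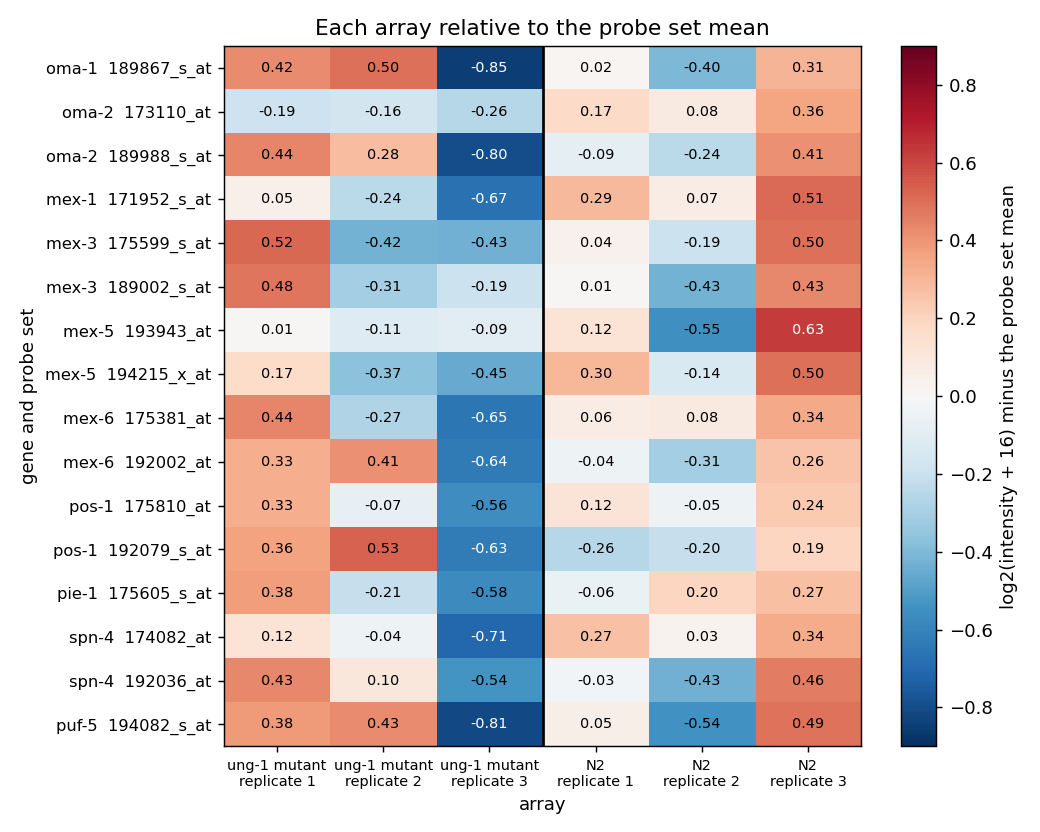
Log2(intensity + 16) of each probe set (rows) on each array (columns) minus the mean of that probe set over the 6 arrays, printed in the cells and coloured from blue (lower) to red (higher), with a line between the genotypes. The column of mutant replicate 3 is negative in all 16 rows, from -0.85 to -0.09, and that of N2 replicate 3 positive in all 16.

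Markers of the germ line and of oocytes stood in similar places on the arrays. Each marker gene was described by its brightest probe set. On that basis the 10 RNA-binding genes had a median log2 fold change of -0.30. The 10 oocyte surface and eggshell genes, among them the yolk receptor gene rme-2 and the chitin synthase gene chs-1, had array medians of 0.26, 0.06 and -0.56 in the mutant and 0.06, 0.01 and 0.38 in N2. Their summed intensity ran from 46826 to 71788 in the mutant and from 64899 to 77052 in N2, and 0 of 10 passed, with 10 of 10 negative and a median log2 fold change of -0.21. Without mutant replicate 3 that median was -0.03, and egg-1, egg-2, cpg-3 and rme-2 were positive. For 8 general germ line genes of P granules and meiotic chromosomes, the array medians were 0.34, 0.23 and -0.69 in the mutant and -0.08, -0.09 and 0.25 in N2, with summed intensities of 4149.98 to 8599 and 6551 to 8225. Their median log2 fold change was -0.05, and 0.22 without mutant replicate 3. Both lists were lowest on mutant replicate 3, as were the 16 probe sets, and so were 2 lists that are not of oocytes. These were intestine, with a median of -0.35 there and from -0.14 to 0.26 on the other arrays, and sperm, with a median of -0.24 there and from -0.21 to 0.15 on the others. Within the intestine list elt-2 went the other way, reading 1476 on mutant replicate 3 and 441 to 872 on the other arrays. The other intestine genes were lowest there. The yolk protein gene vit-5, made in the intestine and named after its values were seen, read 21698, 20889 and 3609 in the mutant and 21109, 18870.1 and 17868 in N2. The part of any of these lists in the differences was not tested. Sperm markers, 7 genes, summed to 811 to 1939 in the mutant and 897 to 1469.6 in N2, and 7 zygotic embryo markers to 736 to 878 and 744 to 981. Intestinal markers, 5 genes including yolk proteins, summed to 26556 to 52075 and 45007 to 51066. Body wall muscle and hypodermis, with 3 genes each, summed to 4147 to 8925 and 1117 to 1842 in the mutant and to 5628 to 9785 and 839 to 2293 in N2. In each of these 7 lists the summed levels overlapped between the genotypes, and 0 genes passed.

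**Figure D4:**
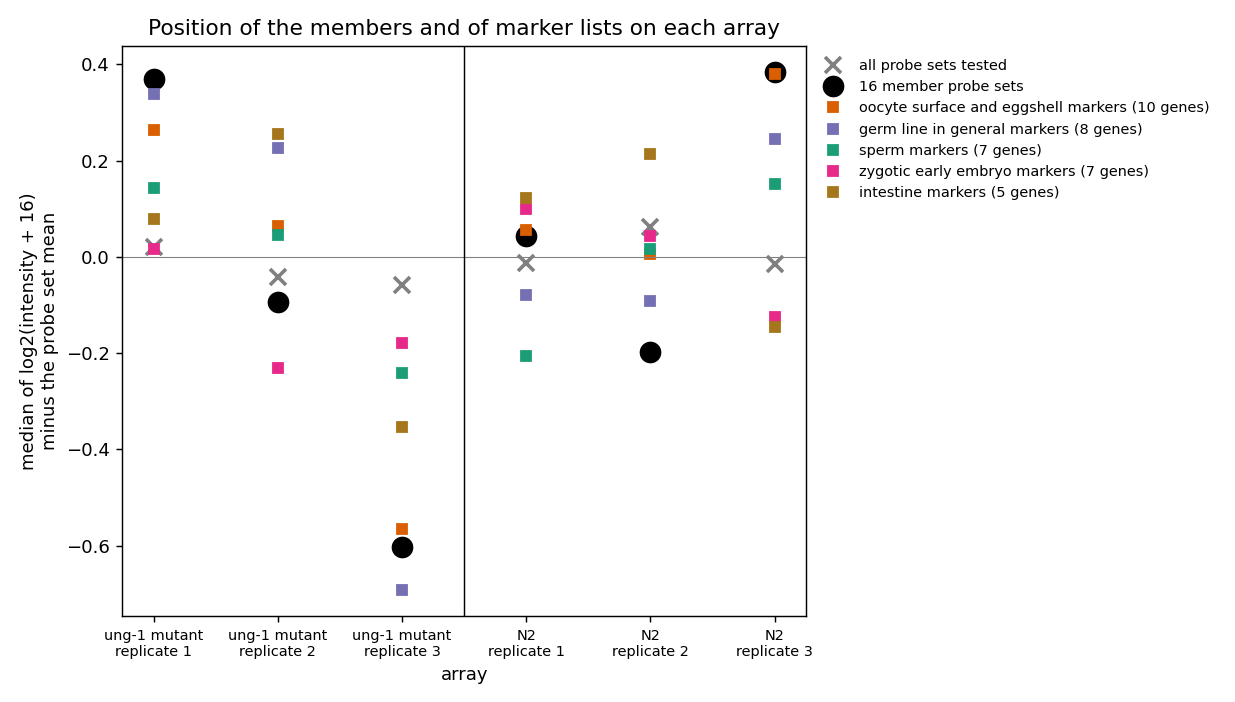
Median over genes or probe sets of log2(intensity + 16) minus each probe set's mean (y axis) on each array (x axis), for the 16 probe sets studied (black), all probe sets tested (grey crosses) and 5 marker lists (coloured squares), with a line between the genotypes. On mutant replicate 3 the 16 probe sets (-0.60) and the oocyte (-0.56), general germ line (-0.69), intestine (-0.35) and sperm (-0.24) lists have their lowest value of the 6 arrays, while the zygotic embryo list has its lowest on mutant replicate 2.

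The other genes of this regulatory network were described by the brightest probe set of each. None passed the threshold in either direction, with an adjusted p of 0.999 for each gene named here, so the following are values only. Of 17 related CCCH and Puf family genes, 15 were measured, 7 of them positive and 8 negative, with a median of -0.06 that became 0.06 without mutant replicate 3. The lowest were puf-7, which acts with puf-5 in oocytes, at -0.59 (SE 0.20) with the groups apart, and ccch-3 at -0.52 (SE 0.40). The highest were puf-12 at 0.68 (SE 0.30) and fbf-1, a Pumilio family regulator of germ line stem cells, at 0.23 (SE 0.35).

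Of 12 mRNAs known as targets of these proteins, 12 were measured, 9 negative and 3 positive, with a median of -0.11 that became 0.11 without mutant replicate 3. The lowest were lin-41, a regulator of oocyte growth and maturation, at -0.51 (SE 0.36), and neg-1 at -0.31 (SE 0.28). The highest were mei-1, the katanin gene of the meiotic spindle, at 0.26 (SE 0.30), and the Wnt ligand gene mom-2 at 0.19 (SE 0.29). In these 4 genes the groups overlapped.

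Of 22 genes for polarity, kinases and protein degradation that act on these proteins, 19 were measured, 11 negative and 8 positive, with a median of -0.05 that became 0.02 without mutant replicate 3. The polarity genes par-3 and par-2 were the lowest, at -0.42 (SE 0.15) and -0.40 (SE 0.18), each with the groups apart. Their means were 4999 ± 584 in the mutant and 6684 ± 221 in N2 for par-3, and 193 ± 26.96 and 259.6 ± 40.6 for par-2. The highest were plk-2, a Polo-like kinase gene, at 0.28 (SE 0.42) and gsk-3, a kinase gene for OMA-1 clearance, at 0.18 (SE 0.13), the latter with the mutant arrays above N2.

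Among 17 other germ line RNA regulators, 16 were measured, 10 negative and 6 positive, with a median of -0.11 that became 0.13 without mutant replicate 3. The lowest were gld-3, a partner of the poly(A) polymerase GLD-2, at -0.44 (SE 0.46) and fog-1 at -0.20 (SE 0.19). The highest were ifet-1, a translational repressor gene, at 0.20 (SE 0.30) and cpb-2 at 0.13 (SE 0.26). For gld-3 the difference was 0.02 without mutant replicate 3.

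The genes most like the 10 across the arrays were sought among 10699 probe sets of other genes with a mean above the median. Likeness was the root mean square difference, over 6 arrays on the log2 scale, from the mean profile of the 10 genes. The closest was F45F2.10 at 0.046, followed by pafo-1, a gene of the PAF1 complex, at 0.073, the condensin gene capg-2 at 0.074, B0238.9 at 0.080 and K07F5.12 at 0.085. The median over the candidates was 0.43, and a gene with the same value on every array would stand at 0.32. The gene F45F2.10 read 4501, 3588 and 2563 in the mutant and 4196, 3352 and 5138 in N2. Like the mean profile it was chosen to match, it was lowest on mutant replicate 3 and highest on N2 replicate 3. Its difference of -0.27 (SE 0.26) did not pass.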

How the data were processed

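Per the labels' protocols, RNA from 3 ung-1 mutant and 3 N2 samples was isolated with Trizol and biotin-labelled for Affymetrix arrays. The deposited values are 1 linear intensity per probe set and array. How probes were summarised, corrected for background and scaled is not stated in the sources used here. Precision is limited by having 6 arrays. Of all cells, 1361 held whole numbers that match spreadsheet dates and were turned back into the small values they stand for (day.month in 631, month.year in 730). None lay in the 16 probe sets of the 10 genes.

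Probe sets were named from the platform annotation, with symbols checked against RefSeq genes of WBcel235 (0 changed), and 77 control probe sets were left out. Tests used log2(intensity + 16) in limma 3.58.1 (R 4.3.3, lmFit and eBayes, two-sided) over 22548 probe sets, with Benjamini-Hochberg adjustment and a threshold of 0.05. No further normalization and no filter were applied. The fit was tested on simulated data. Figures were drawn with matplotlib 3.10.9 in Python 3.11.15, from tables made with pandas 2.3.3 and numpy 2.4.6.

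The members, the lists and the settings were chosen with earlier results of these data known. Named genes were ung-1, the 10 members, in each of 4 lists the 2 genes with the most positive and the 2 with the most negative log2 fold change, and the 5 genes most alike. As examples of a marker list, rme-2 and chs-1 were named. Other marker genes, namely vit-2, vit-5, vit-6, elt-2, egg-1, egg-2 and cpg-3, were named after their values were seen. Alternatives were the deposited values, date cells as missing, offsets of 1 and 50, a filter, quantile normalization, median centring, array weights, an intensity trend, the replicate number as a block and leaving out each array. No explanation was tested.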

Additional observations from a re-analysis of the deposited data

How the results depend on the processing

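None of the 16 probe sets passed an adjusted p of 0.05 in any of the 16 other settings. Over all probe sets the count of 0 in limma (435 at an unadjusted p under 0.05) became 6 with the values as deposited, 1 with array weights and 1 with an intensity trend, and stayed at 0 without each array. The 2 member probe sets at an unadjusted p under 0.05 became 0 without the dimmest probe sets, 1 with median centring, 0 with an intensity trend and 0 with the replicate block, and 3 with array weights, where 6.89% of all probe sets were under 0.05. Without single arrays they were 0 to 5, the 5 without mutant replicate 1, where 3.17% of all probe sets were under 0.05 (1.03% to 3.96% over the 6 settings). The 2 with the groups apart became 1 with quantile normalization and 1 with median centring, and 2 to 8 without single arrays, the 8 without mutant replicate 1. With 1 array fewer, groups separate more often: 22.1% of all probe sets were apart in that setting and 11.3% at the least, beside 6.69% with all arrays. The median of the 16 ran from -0.35 (without mutant replicate 1) to 0.05 (without N2 replicate 3), so that neither its size nor its sign was independent of single arrays.

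In the 10 settings that keep all arrays, 154 of 160 single differences kept their sign. Those that turned were oma-1 (-0.017) and the mex-6 probe set 192002_at (-0.0025) with quantile normalization, the mex-3 probe set 189002_s_at (0.032) and the spn-4 probe set 192036_at (0.042) with median centring, and the oma-2 probe set 189988_s_at (0.13) and spn-4 192036_at (0.033) with array weights. With single arrays left out, 77 of 96 kept their sign. Without crossing 0, mex-3 175599_s_at ran from -0.54 to -0.04, mex-5 194215_x_at from -0.63 to -0.30, mex-6 175381_at from -0.63 to -0.08, pie-1 from -0.53 to -0.05 and spn-4 174082_at from -0.59 to -0.17. The ranges that crossed 0 were -0.19 to 0.49 for oma-1, -0.29 to 0.33 for oma-2 189988_s_at, -0.25 to 0.20 for mex-3 189002_s_at, -0.44 to 0.15 for mex-5 193943_at, -0.12 to 0.40 for mex-6 192002_at, -0.42 to 0.025 for pos-1 175810_at, -0.042 to 0.54 for pos-1 192079_s_at, -0.22 to 0.27 for spn-4 192036_at and -0.27 to 0.41 for puf-5. The cause was not tested. No pairing by replicate number was seen. The deviations of same-numbered arrays from their group means correlated at -0.19, 0.09 and 0.10 across probe sets. For differently numbered arrays the correlations ran from -0.21 to 0.11. The block changed no adjusted call, and a batch shared by some of the arrays was not tested.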

Other observations

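The lower reading of the brighter probe set was also present among other genes. Of 2496 genes with exactly 2 probe sets, the one with the higher mean intensity had the lower log2 fold change, mutant minus N2, in 1687 (67.6%), with a median difference of -0.11. Among the 572 genes whose 2 probe sets were both brighter than the dimmest of the 16 studied here, the share was 81.6% and the median difference -0.21. In the 16 other settings the share over all such genes was lowest at 60.4%, with mutant replicate 2 left out; leaving out mutant replicate 3 gave 71.5%, and leaving out the dimmest probe sets 72.6%, the highest. In each setting it held for 6 of 6 of the maternal RNA-binding genes.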
